A study of Mus musculus with 8 samples.

Results

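The enzymes described here move one-carbon units on folate, and they were chosen by symbol as Aldh1l1, Aldh1l2, Shmt1, Shmt2, Mthfd1, Mthfd1l, Mthfd2 and Mthfs. Of these 8 genes, 7 were measured among the 11704 genes of the expression table, and Mthfs was not analysed here. Aldh1l1 was picked because its level was lower in all AAV-FGF17 hearts, so its values are a description and carry no test. The other enzymes were added for their place in the pathway, with earlier results of these data known.

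Transcripts were measured by RNA sequencing of whole mouse hearts. The vector, adeno-associated virus serotype 9, is one that reaches heart muscle, and it was given subcutaneously to newborn mice. It brought in mouse Fgf17 in the 4 AAV-FGF17 hearts, and the other 4 hearts had its control vector. The animals were 8 to 10 weeks old when the hearts were taken, and both groups carry the vector. The labels give neither strain, sex nor the promoter of the vector, and they number the hearts 1 to 4 in each group without saying that each is a separate animal. The table's column names carry the word sham, and whether these hearts had been operated on is unknown.

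Folate carries single carbons between serine, formate, purines, thymidylate and methionine, and the pathway runs in parallel in the cytosol and in mitochondria. The serine hydroxymethyltransferases SHMT1 (cytosol) and SHMT2 (mitochondria) load a carbon from serine, and the MTHFD enzymes convert the loaded forms into each other or release formate. ALDH1L1 in the cytosol and ALDH1L2 in mitochondria remove the carbon by oxidising formyl-tetrahydrofolate to carbon dioxide, which returns free tetrahydrofolate and makes NADPH. ALDH1L1 is abundant in liver and is used as a marker of astrocytes. MTHFS returns the storage form of folate to the pool.

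Several of these genes have paralogues, so the sequences were first compared for how well reads could tell them apart. The stretches below are the most alike 60 coding bases of the Aldh1l1 and Aldh1l2 pair and of the Shmt1 and Shmt2 pair, from the principal transcripts of the GENCODE M21 annotation, with the bases that differ in capitals.
Aldh1l1: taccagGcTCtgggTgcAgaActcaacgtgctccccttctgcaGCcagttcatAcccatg
Aldh1l2: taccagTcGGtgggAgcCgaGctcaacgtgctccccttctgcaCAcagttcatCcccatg
Shmt1: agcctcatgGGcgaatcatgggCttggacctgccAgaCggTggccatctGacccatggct
Shmt2: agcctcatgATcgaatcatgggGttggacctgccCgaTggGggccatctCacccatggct

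Even here the first pair differs at 9 of 60 bases and the second at 7 of 60. Over the whole coding sequence Aldh1l1 and Aldh1l2 were 71.4% identical, with a longest exact run of 22 bases and 0 shared words of 31 bases. Shmt1 and Shmt2 were 64.1% identical with a longest run of 19 bases, and Mthfd1 and Mthfd1l 62.7% with a longest run of 20 bases, again with 0 shared words. Mthfs differs from the rest, since 78.5% of the 31-base words of its principal transcript also occur in the gene Mthfsl, which is not among the enzymes described.

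Overlap with neighbouring genes took up more of the sequence than likeness between paralogues. Aldh1l1 (ENSMUSG00000030088.15) lies on the plus strand of chromosome 6 at chr6:90486427-90600203 (GRCm38), and 9.22% of its 31-base words lie opposite the antisense gene Gm15756. Aldh1l2 (ENSMUSG00000020256.14, chr10:83487450-83534140, minus strand) shares 17.1% of its words with D10Wsu102e on the other strand. Shmt1 (ENSMUSG00000020534.14, chr11:60788104-60811718, minus strand) shares 5.45% with Smcr8 on the other strand. Shmt2 (ENSMUSG00000025403.5, chr10:127517123-127522444, minus strand) shares 5.05% with Gm15544 on the same strand. Whether the reads were assigned by strand is not given in the sources used here, so reads in these stretches cannot be divided with certainty. For Shmt2 and Gm15544 strand would not divide them in any case.

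The main start of Aldh1l1 lies well inside the annotated locus, because a short non-coding transcript of 3 exons begins the gene at 90486427, while both principal coding transcripts of 23 exons begin at 90550789 and 90550805. The 250 bases before the RefSeq start (GRCm38.p6, chr6:90550543-90550792, plus strand) are shown because this is the promoter of the enzyme that differed most; capitals mark CCAAT boxes, the letters bound by NF-Y, which read ATTGG on this strand.
Aldh1l1 promoter: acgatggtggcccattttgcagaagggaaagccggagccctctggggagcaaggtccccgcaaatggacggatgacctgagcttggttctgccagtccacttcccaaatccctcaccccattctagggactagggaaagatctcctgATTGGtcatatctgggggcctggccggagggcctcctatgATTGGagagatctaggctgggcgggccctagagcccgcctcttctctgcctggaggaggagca

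This window holds 2 CCAAT boxes, and the letters CCAAT on either strand occur in 33.8% of the 32817 promoter windows of this length. It also holds 1 GC box (GGGCGG, either strand), which 32.7% of windows hold. The E-box CACGTG (6.02% of windows) and the amino acid response element TGATGNAA (3.45% of windows, either strand), the letters through which ATF4 acts, were not found in it. Of the other enzymes with an entry, Mthfd2 had 3 CCAAT boxes, Shmt1 and Mthfd1 had 1 each, and Shmt2 and Mthfd1l had 0. None of the measured enzymes with an entry held the amino acid response element in this window. A match of letters is no evidence of binding.

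The hearts carried the tissue that their labels name, and Fgf17 was higher in all AAV-FGF17 hearts than in any control vector heart. All 8 cardiomyocyte markers were listed, with Myh6 between 2316 and 7414 FPKM over the 8 libraries. Fgf17 averaged 114 ± 45.3 FPKM in AAV-FGF17 hearts and 5.36 ± 5.05 in control vector hearts (SD, n = 4 each). In control vector replicates 1 to 4 it measured 9.59, 1.43, 0.560 and 9.86 FPKM, against at least 69.0 FPKM in each AAV-FGF17 heart. Control vector libraries 1 and 4 were the most alike pair by the robust SD of log2 differences over 1404 abundant nuclear genes (0.0797). Each lay closer to AAV-FGF17 library 3 (0.117 and 0.118) than to control vector libraries 2 and 3 (0.353 or more). The cause was not tested. Of the summed FPKM, mitochondrially encoded genes held 62.8% to 66.9% in AAV-FGF17 libraries, against 64.0% and 64.1% in control vector libraries 1 and 4 and 44.5% and 30.9% in control vector libraries 2 and 3, which thus stood apart. FPKM is scaled to the library total, so nuclear genes read higher in those 2 libraries. Over the 10025 genes tested, those averaging 1 FPKM or more, the median change was -0.12 on the log2(FPKM + 1) scale, and 0.00 after median-of-ratios scaling. Log2 changes below are therefore AAV-FGF17 minus control vector relative to that median gene, on the log2(FPKM + 1) scale, which understates the change of low genes. Adjusted p-values are from limma over the 10025 genes (Benjamini-Hochberg) and test the change before the median is taken off.

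Aldh1l1, the cytosolic enzyme that oxidises the one-carbon unit, was the member with the largest difference between the groups. It measured 0.568, 0.339, 1.05 and 0.390 FPKM in AAV-FGF17 hearts, against 2.55, 1.68, 5.87 and 2.42 FPKM in control vector hearts. The groups did not overlap: the highest AAV-FGF17 heart, replicate 3 at 1.05 FPKM, lay below the lowest control vector heart, replicate 2 at 1.68 FPKM. The means were 0.587 ± 0.325 and 3.13 ± 1.87 FPKM (SD, n = 4 each), so the AAV-FGF17 mean was 18.8% of the control vector mean. The log2 change, the measure the gene was chosen on, was -1.19 ± 0.27 (SE). Without control vector libraries 2 and 3 it was -1.13, and without control vector replicate 3 alone, the highest heart, -0.95. For scale, 4.64% of tested genes lay without overlap below the controls, or 2.4% after median-of-ratios scaling, and 0.998% lay without overlap above them.

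**Figure D1:**
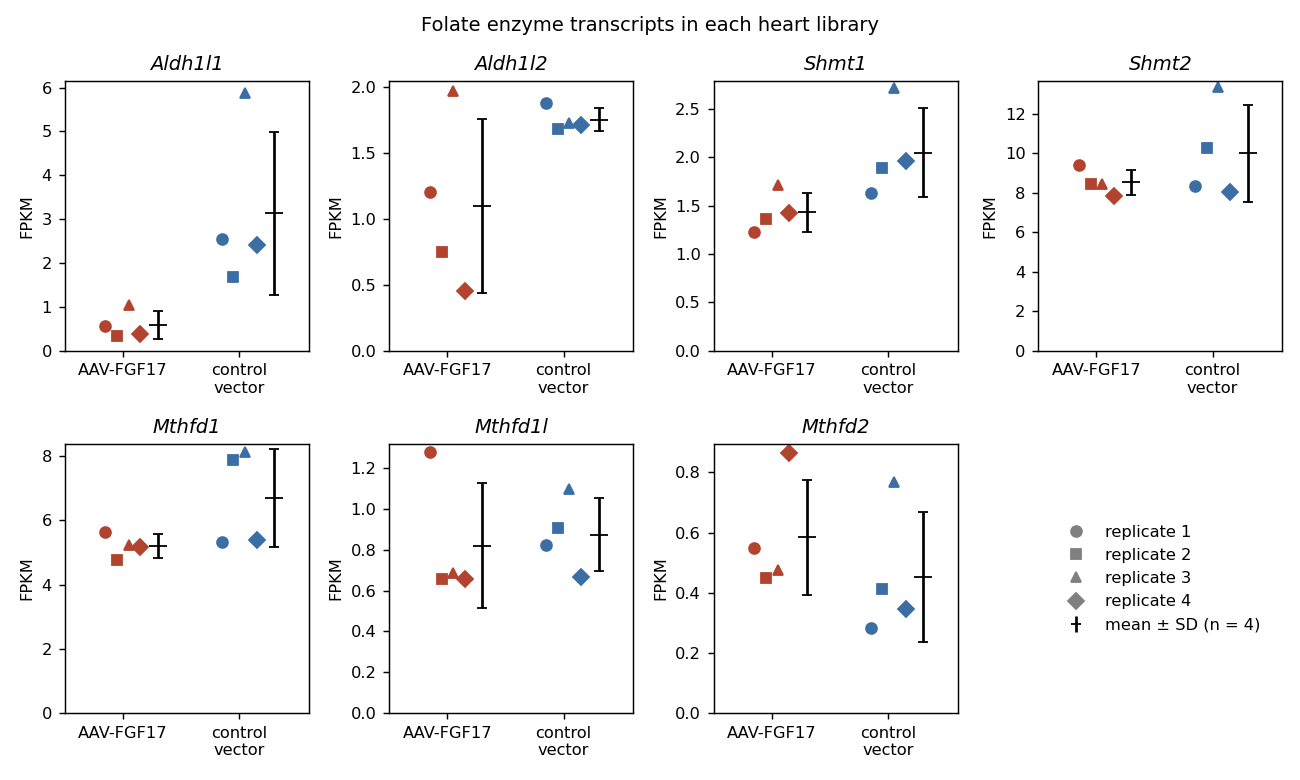
FPKM of the 7 measured folate enzymes in each library, with AAV-FGF17 hearts at the left and control vector hearts at the right of each panel; marker shapes give the replicate number, and bars the mean ± SD (n = 4). The AAV-FGF17 hearts lie at or below 1.05 FPKM for Aldh1l1 and all control vector hearts lie at or above 1.68 FPKM, whereas the groups overlap for each of the other 6 enzymes.

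Aldh1l2, the mitochondrial form of the same enzyme, did not separate the groups. It measured 1.21, 0.750, 1.97 and 0.454 FPKM in AAV-FGF17 hearts, against 1.88, 1.68, 1.73 and 1.71 FPKM in control vector hearts. The control vector hearts were nearly equal (1.75 ± 0.0862 FPKM), and the AAV-FGF17 hearts were spread on both sides of them (1.09 ± 0.659 FPKM), with replicate 3 the highest of all 8 and replicate 4 the lowest. Its log2 change was -0.33 ± 0.20 (SE; 95% interval -0.76 to 0.11; limma adjusted p = 0.495). It was -0.17 without AAV-FGF17 replicate 4, -0.50 without AAV-FGF17 replicate 3, and -0.66 with a pseudocount of 0.1. The AAV-FGF17 replicate with most Aldh1l2, replicate 3, was also the one with most Aldh1l1.

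The cytosolic share of this pair can be read within each library, where the scaling of the library cancels. Aldh1l1 made up 32.0%, 31.1%, 34.8% and 46.2% of the FPKM of Aldh1l1 plus Aldh1l2 in AAV-FGF17 hearts, against 57.6%, 49.9%, 77.2% and 58.6% in control vector hearts. The cytosolic form was thus the lower one in 4 of 4 AAV-FGF17 hearts, and in control vector hearts it was the higher one in 3 of 4 and level with its partner in replicate 2. This split follows from the choice of Aldh1l1 and is given without a test.

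**Figure D2:**
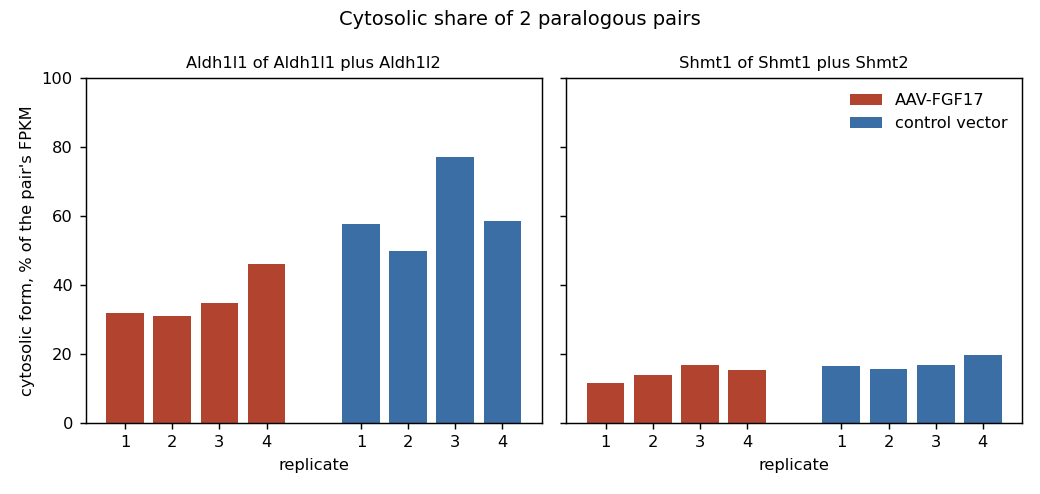
Share of the cytosolic form in the summed FPKM of 2 paralogous pairs, 1 bar per library, AAV-FGF17 at the left and control vector at the right. The Aldh1l1 share runs from 31.1% to 46.2% in AAV-FGF17 hearts and from 49.9% to 77.2% in control vector hearts, while the Shmt1 share runs from 11.6% to 16.9% and from 15.5% to 19.7%.

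The serine hydroxymethyltransferases feed the pathway at its entry. Shmt2, the mitochondrial form and the most abundant of the 7 enzymes, measured 9.38, 8.45, 8.42 and 7.84 FPKM in AAV-FGF17 hearts, against 8.34, 10.3, 13.4 and 8.01 FPKM in control vector hearts. The 2 high values are those of control vector libraries 2 and 3, and the remaining control vector hearts lay within the AAV-FGF17 range. The log2 change was -0.07 ± 0.15 (SE; 95% interval -0.41 to 0.28; limma adjusted p = 0.579), and it turned to 0.072 without control vector libraries 2 and 3. Shmt1, the cytosolic form, measured 1.23, 1.36, 1.71 and 1.42 FPKM in AAV-FGF17 hearts, against 1.63, 1.89, 2.71 and 1.96 FPKM in control vector hearts. Only AAV-FGF17 replicate 3 reached into the control vector range. The log2 change of Shmt1 was -0.20 ± 0.13 (SE; 95% interval -0.49 to 0.09; limma adjusted p = 0.495). Smcr8, which overlaps Shmt1 on the other strand, measured 2.11 ± 0.301 FPKM in AAV-FGF17 hearts and 2.30 ± 0.167 in control vector hearts (SD, n = 4 each). The cytosolic share of this pair was 14.4% ± 2.25 in AAV-FGF17 hearts and 17.1% ± 1.81 in control vector hearts (SD, n = 4 each), and the ranges overlapped.

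The MTHFD enzymes carry the conversions between the loaded folates. Mthfd1 (ENSMUSG00000021048.7, chr12:76255298-76319803, plus strand), the cytosolic enzyme with 3 activities, measured 5.65, 4.76, 5.22 and 5.18 FPKM in AAV-FGF17 hearts, against 5.33, 7.88, 8.11 and 5.40 FPKM in control vector hearts. As with Shmt2, control vector libraries 2 and 3 were the high ones. Its log2 change was -0.17 ± 0.15 (SE; 95% interval -0.50 to 0.16; limma adjusted p = 0.496), and -0.02 without those libraries. Scaled to the sum of nuclear genes, Mthfd1 ran from 5.35 to 6.18 FPKM in AAV-FGF17 hearts and from 5.81 to 6.79 in control vector hearts.

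Mthfd1l and Mthfd2 release formate and interconvert folates inside mitochondria, and both lay below the mean of 1 FPKM that a gene needed to be tested. Mthfd1l (ENSMUSG00000040675.17, chr10:3973118-4167081, plus strand) measured 1.28, 0.656, 0.687 and 0.657 FPKM in AAV-FGF17 hearts, against 0.823, 0.906, 1.09 and 0.668 FPKM in control vector hearts. AAV-FGF17 replicate 1 stood apart from its group. Mthfd2 (ENSMUSG00000005667.8, chr6:83305691-83325908, minus strand), whose transcript is otherwise known from proliferating and stressed cells, measured 0.549, 0.449, 0.476 and 0.864 FPKM in AAV-FGF17 hearts, against 0.284, 0.413, 0.767 and 0.345 FPKM in control vector hearts. With no filter on low values, the limma adjusted p was 0.859 for Mthfd1l and 0.633 for Mthfd2. The Mthfd2 mean was 129% of the control vector mean, the only one of the 7 above it, and control vector replicate 3 lay among the AAV-FGF17 hearts.

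Read together, 5 of the 8 chosen genes passed the level filter. Of the 4 of these other than Aldh1l1, 0 passed limma at an adjusted p of 0.05 in the whole table. The share passing over all 10025 genes was 0% higher and 0% lower. Fgf17, the gene brought in by the vector, did not pass either (log2 change 4.69, limma adjusted p = 0.248). The test thus missed even that difference, so not passing does not show an unchanged level, here or in the lists below. At an unadjusted p under 0.05 limma gave 136 genes higher (1.36%) and 800 lower (7.98%). Aldh1l2 (unadjusted p = 0.0472) and Shmt1 (unadjusted p = 0.0351) were among the 800 by limma, before the median of all genes is taken off, and Mthfd1 and Shmt2 were not. Aldh1l2, Shmt1, Mthfd1 and Shmt2 all lay below the median gene, between -0.33 and -0.07, and each 95% interval held 0. The 6 measured enzymes without Aldh1l1 summed to 17.7 ± 1.46 FPKM in AAV-FGF17 hearts and 21.8 ± 4.59 in control vector hearts (SD, n = 4 each).

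**Figure D3:**
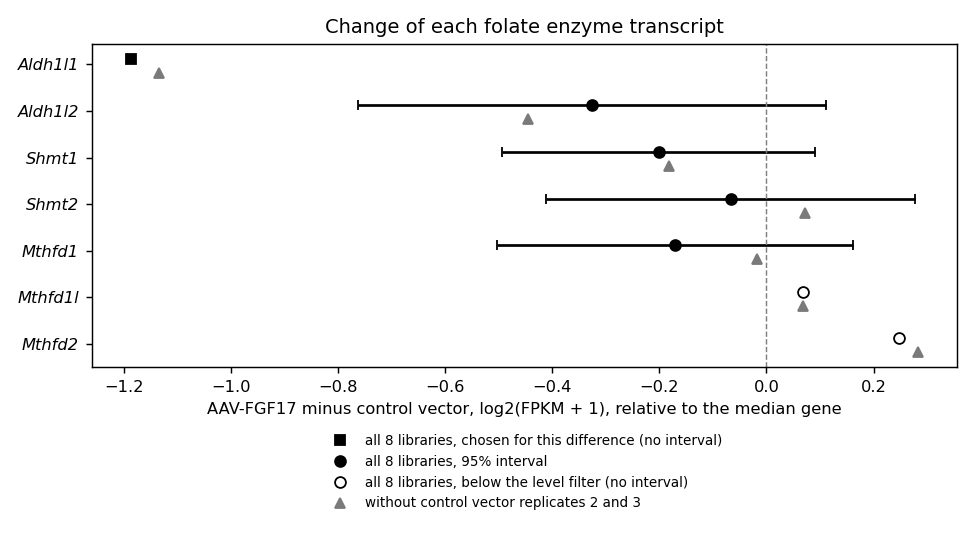
Change of each enzyme in AAV-FGF17 minus control vector hearts on the log2(FPKM + 1) scale, relative to the median of all tested genes; the square is Aldh1l1, chosen for this difference and shown without an interval, filled circles have the 95% interval of the fit, open circles lie below the level filter, and triangles leave out control vector libraries 2 and 3. Aldh1l1 lies at -1.19, the 4 intervals drawn cross 0, and Shmt2 changes side without those 2 libraries.

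The order of the enzymes within a library was stable at the top. Shmt2 came first and Mthfd1 second in all 8 libraries. Their ranges did not overlap in AAV-FGF17 hearts (at least 7.84 against at most 5.65 FPKM), while in control vector hearts the lowest Shmt2 value of 8.01 FPKM lay just under the highest Mthfd1 value of 8.11. Below them, Aldh1l1 had rank 6, 7, 5 and 7 of the 7 in AAV-FGF17 hearts, against rank 3, 5, 3 and 3 in control vector hearts. In AAV-FGF17 hearts the order of the means after Mthfd1 was Shmt1, Aldh1l2, Mthfd1l, Aldh1l1 and Mthfd2, and each overlapped its neighbour. In control vector hearts it was Aldh1l1, Shmt1, Aldh1l2, Mthfd1l and Mthfd2, and the first 3 overlapped each other. Aldh1l2 lay above Mthfd1l there in 4 of 4 hearts, at 1.68 FPKM or more against 1.09 or less.

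The genes whose profile over the 8 libraries was most like that of Aldh1l1 were Plin1, Sost, Gpc3, Cdo1 and Stard10. Likeness was the root mean square difference of the centred log2(FPKM + 1) profiles after median-of-ratios scaling, over 9780 genes, and it was 0.22, 0.27, 0.29, 0.30 and 0.32 for the 5 in that order, against a median of 0.73. A gene with a flat profile would score 0.71, so that median says little. The 5 were picked to match a gene that was itself chosen for its group difference. Their lower AAV-FGF17 values and shared high replicates follow from that choice and carry no test. Plin1 encodes perilipin, which coats the lipid droplet of fat cells, and measured 0.590, 0.496, 2.09 and 0.670 FPKM in AAV-FGF17 hearts, against 2.24, 2.58, 5.85 and 2.83 FPKM in control vector hearts. As for Aldh1l1, AAV-FGF17 replicate 3 was the highest of its group and control vector replicate 3 the highest of all. Cdo1, a cysteine-oxidising enzyme abundant in liver and fat, averaged 6.97 ± 4.38 and 15.5 ± 4.17 FPKM in AAV-FGF17 and control vector hearts, with AAV-FGF17 replicate 3 at 13.4 FPKM inside the control vector range. Sost encodes sclerostin, a WNT inhibitor, Gpc3 a glypican, and Stard10 a lipid transfer protein.

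**Figure D4:**
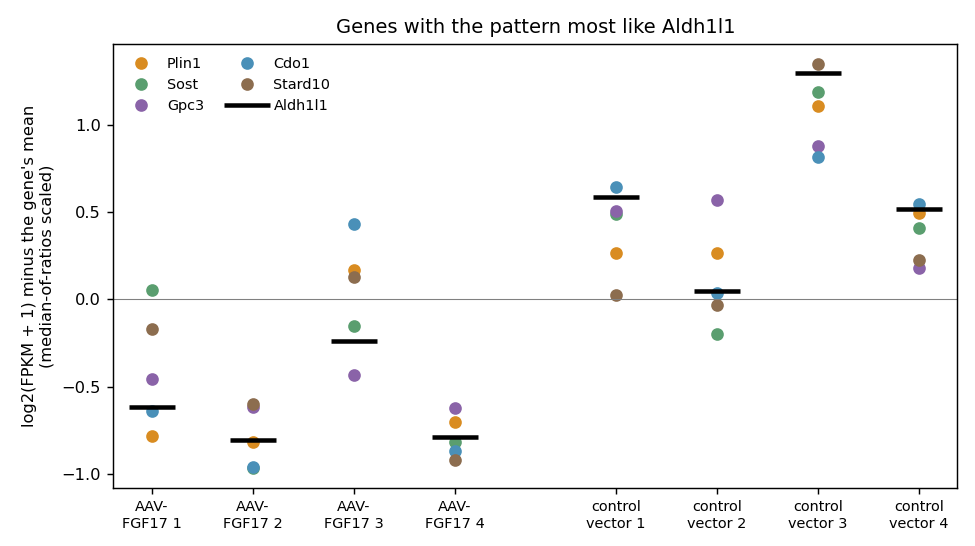
Centred log2(FPKM + 1) profile of Aldh1l1 (black bars) and of the 5 genes most like it (points) in each library, after median-of-ratios scaling. In AAV-FGF17 hearts replicate 3 is the highest for Aldh1l1, and among control vector hearts replicate 3 is the highest for all 6 genes.

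Markers of fat cells had lower values beside Aldh1l1, and the atrial list given below lay lower still (median -0.98). All 8 white adipocyte markers were listed and none was at 0, and all 7 tested ones lay below the median gene (median -0.83), with 0 past limma. Their summed level ran from 52.4 to 202 FPKM in AAV-FGF17 hearts and from 140 to 340 FPKM in control vector hearts, and the highest AAV-FGF17 value was that of replicate 3. Cfd, the adipokine adipsin, averaged 44.7 ± 34.4 and 110 ± 68.4 FPKM, and Car3, a carbonic anhydrase of fat and muscle, 36.6 ± 26.1 and 66.6 ± 19.3 FPKM in AAV-FGF17 and control vector hearts (SD, n = 4 each). The sum in AAV-FGF17 replicate 3 lay inside the control vector range. Of the 7 tested markers, 2 lay below the control vector hearts in all 4 AAV-FGF17 hearts. These were Plin1 (values above) and Pparg, the regulator of fat cell genes, and Pparg overlapped after median-of-ratios scaling. Over all tested genes 4.64% lay without overlap below the controls, or 2.4% after that scaling. Both markers overlapped when scaled to the sum of nuclear genes. Plin1 had been picked above for its likeness to Aldh1l1, so its lower level follows from that choice. Pparg was named here after its values were seen. In whole-heart RNA, fewer cells of a type and less RNA per cell cannot be told apart, and the part of fat cells in the Aldh1l1 difference was not tested.

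Marker lists of other cell types also lay off the median gene. Single markers without overlap below the controls were 3 of 6 mesothelial, 3 of 7 endothelial, 2 of 5 brown adipocyte and 2 of 7 smooth muscle. After median-of-ratios scaling these were 2, 0, 2 and 2, in that order. The cardiomyocyte, atrial, fibroblast, macrophage, glial, hepatocyte and skeletal muscle lists had 0 with either scaling. The 6 mesothelial markers summed to 8.10 to 17.2 FPKM in AAV-FGF17 hearts and to 21.04 to 24.0 FPKM in control vector hearts, without overlap (1 of 6 above the median gene, median -0.43). Krt19, a keratin of the surface layer, averaged 2.91 ± 1.07 FPKM in AAV-FGF17 hearts and 6.98 ± 2.07 in control vector hearts (SD, n = 4 each; limma adjusted p = 0.495). The deposited sums were also apart for the 7 endothelial markers, which summed to 109 to 142 FPKM in AAV-FGF17 hearts, against 145 to 187 FPKM in control vector hearts, but these overlapped after median-of-ratios scaling, while the mesothelial sums did not (2 of 7 endothelial markers above the median gene, median -0.22). Of the brown adipocyte markers 4 of 5 tested lay below the median gene (median -0.19), of the atrial markers 6 of 6 (-0.98) and of the smooth muscle markers 7 of 7 (-0.50), all with overlapping sums. The atrial sums were 1901, 568, 1872 and 856 FPKM in AAV-FGF17 hearts, against 2233, 1403, 3101 and 2253 FPKM in control vector hearts. The smooth muscle sums were 407, 328, 408 and 424.5 FPKM in AAV-FGF17 hearts, against 405, 580, 951 and 406 FPKM in control vector hearts. Des alone gave most of each sum, with 362 and 687 FPKM in control vector libraries 2 and 3. Acta2, the next most abundant, averaged 74.0 ± 18.9 and 106 ± 15.6 FPKM in AAV-FGF17 and control vector hearts, with overlap. Most of each brown adipocyte sum was likewise Cox8b (241 ± 27.5 and 271 ± 56.6 FPKM). Of 8 cardiomyocyte markers 7 lay below the median gene (-0.27), with the highest sums in control vector libraries 2 and 3. Of 7 fibroblast markers 4 lay above the median gene (0.18), and their sums overlapped as deposited but lay apart after median-of-ratios scaling, at 209 to 229 FPKM in AAV-FGF17 hearts, against 177 to 201 FPKM in control vector hearts. Of 7 macrophage markers 5 lay above (0.22). Of the glial list, which bears on a gene used as an astrocyte marker, 3 of 7 were tested and 2 lay above (0.02). Of the hepatocyte list 2 of 7 were tested and both lay below (-0.61), and of the skeletal muscle list 3 of 7 with 2 below (-0.18). The thymocyte list had 0 listed markers. No marker of any list passed limma, and their part in the result was not tested.

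The other folate genes lay on both sides of the median gene. Of 24 other folate genes 17 were listed and 11 tested, with 0 past limma, 6 above the median gene and 5 below (list median 0.05, against 0 for all tested genes). Slc25a32, the carrier that brings folate into mitochondria, stood the other way. It measured 5.67, 5.22, 5.36 and 5.27 FPKM in AAV-FGF17 hearts, against 5.03, 4.80, 3.93 and 4.88 FPKM in control vector hearts. The groups did not overlap, with or without median-of-ratios scaling, and the log2 change was 0.30 ± 0.11 (SE; limma adjusted p = 0.504). Over all tested genes 0.998% lay without overlap above the controls, and 2.86% after that scaling. Atic and Gart, which use formyl-folate to build the purine ring, measured 2.74 ± 0.314 and 7.22 ± 0.386 FPKM in AAV-FGF17 hearts, against 4.01 ± 1.46 and 8.93 ± 2.40 FPKM in control vector hearts (SD, n = 4 each; limma adjusted p = 0.496 and 0.517). Both were highest in control vector libraries 2 and 3. The glycine cleavage genes Dld and Gcsh measured 204 ± 8.65 and 24.9 ± 3.13 FPKM in AAV-FGF17 hearts, against 227 ± 36.8 and 26.3 ± 5.27 FPKM in control vector hearts.

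Pathways that supply or use the carbon lay close to the median gene. Of 12 serine and glycine genes 4 were tested, with a median of 0.06 and 0 past limma. Slc1a5, a carrier of neutral amino acids, averaged 3.62 ± 0.897 FPKM in AAV-FGF17 hearts and 5.17 ± 2.61 in control vector hearts (limma adjusted p = 0.536). It was the 1 tested gene of this list below the median gene, and 3 lay above. Of 18 methionine cycle genes 9 were tested (median 0.03, 0 past limma). Nnmt, which uses the methyl donor made by that cycle and is abundant in fat and liver, measured 0.613, 0.510, 0.928 and 0.724 FPKM in AAV-FGF17 hearts, against 1.44, 1.81, 2.84 and 0.635 FPKM in control vector hearts. Control vector replicate 4 lay among the AAV-FGF17 hearts (limma adjusted p = 0.495). The log2 change of Nnmt was -0.48 ± 0.23 (SE), while Srm and Amd1 lay at 0.36 ± 0.19 and 0.20 ± 0.13 (SE), with overlapping groups. Of the 9, 6 lay above the median gene and 3 below. Of 19 purine and thymidylate genes 14 were tested, 7 above and 7 below the median gene (median 0.00, 0 past limma). Impdh1, of guanine nucleotide synthesis, averaged 2.75 ± 0.322 and 4.82 ± 2.102 FPKM in AAV-FGF17 and control vector hearts (limma adjusted p = 0.495).

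The mitochondrial folate genes are known targets of the stress factor ATF4, so that list was read beside them. Of 25 genes 15 were tested, 6 above and 9 below the median gene (median -0.05), and 0 passed limma. Atf4 itself averaged 29.2 ± 4.89 FPKM in AAV-FGF17 hearts and 34.2 ± 9.45 in control vector hearts (limma adjusted p = 0.615). Aldh18a1, a proline synthesis enzyme, averaged 1.46 ± 0.293 and 1.98 ± 0.220 FPKM in AAV-FGF17 and control vector hearts, with overlapping groups (limma adjusted p = 0.495).

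Aldh1l1 also belongs to the aldehyde dehydrogenase family. Of 17 other family genes 13 were tested, 3 above and 10 below the median gene (median -0.11), and 0 passed limma. Aldh16a1 lay without overlap below the controls, with 0.811 ± 0.0773 FPKM in AAV-FGF17 hearts, against 1.36 ± 0.632 FPKM in control vector hearts (SD, n = 4 each; limma adjusted p = 0.495). It was the only 1 of the 13 to do so, beside 4.64% of all tested genes (2.4% after median-of-ratios scaling). Its control vector hearts measured 1.02, 1.14, 2.30 and 0.968 FPKM, and its highest AAV-FGF17 heart 0.889 FPKM. Aldh1b1, a mitochondrial form, averaged 4.15 ± 0.982 and 7.07 ± 3.67 FPKM with overlapping groups (limma adjusted p = 0.495). Aldh2, the main mitochondrial detoxifier of acetaldehyde, averaged 29.1 ± 3.01 and 31.7 ± 6.17 FPKM, and its log2 change was 0.01 ± 0.14 (SE; limma adjusted p = 0.720). The 11 other NADPH producers, all tested, had a median of -0.0021 and 0 past limma. Among them Nnt averaged 34.7 ± 1.52 and 40.0 ± 4.76 FPKM and Idh2 274 ± 20.8 and 358 ± 127 FPKM in AAV-FGF17 and control vector hearts (limma adjusted p = 0.496 and 0.521).

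**Figure D5:**
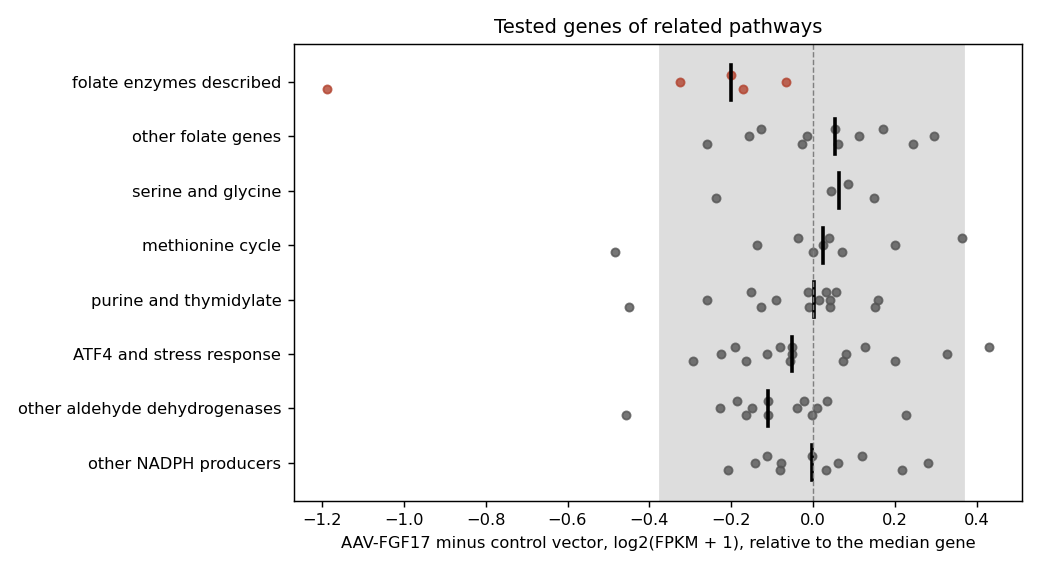
Change of every tested gene of the pathway lists in AAV-FGF17 minus control vector hearts, log2(FPKM + 1) relative to the median of all tested genes; each point is a gene, thick bars are list medians and the grey band holds the middle 90% of all tested genes (-0.375 to 0.369). Aldh1l1 lies at -1.19, outside the range of every other gene shown.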

How the data were processed

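RNA was extracted from whole hearts with Trizol and sequenced from Illumina libraries, per the labels' protocols. Per the file headers, the deposited values are FPKM of genes. StringTie 1.3.3, HISAT2 2.1.0, cutadapt 1.17 and FastQC 0.11.7 and the build GRCm38 are listed, without roles or settings, in the submitters' processing notes. The table lists 11704 protein-coding genes, and 1 empty line was left out. In each listed gene the larger group mean was at least 0.501 FPKM. Columns were matched to samples by name, and 0 were left unassigned.

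Depth is unknown. A search for whole-read steps in the low values of 1135 single-transcript genes found them in 0 of 8 libraries (score above that of jittered values by 0.05), so count tests were not run. Since nothing says the hearts are separate animals, a p-value here reflects only how far these samples spread, which may be technical.

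For the 10025 genes averaging 1 FPKM or more, log2(FPKM + 1) was fitted by group alone in limma (3.58.1; R 4.3.3), using its variance trend. Calls were made at a Benjamini-Hochberg adjusted p of 0.05. The enzymes and all gene lists were chosen with earlier results of these data known. The text names, of each pathway list, genes among the 3 of smallest p and the 2 most abundant. For cell types it names from the 2 most abundant markers, and it names the 5 genes most like Aldh1l1. Words of 31 bases and alignments (Biopython 1.88) used GENCODE M21 transcripts. Promoters are from RefSeq, GRCm38.p6, which matched 7 of the 8 enzymes; the first 250 bases of each entry were used. Same-numbered libraries did not deviate together (correlations -0.109 to 0.0222), and the labels do not pair them. Alternatives varied the pseudocount, filter, scaling, libraries, block, weights and trend.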

Additional observations from a re-analysis of the deposited data

Results flagged for a closer look

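Among 14 groups of 4 values, 1 held a library far from the others by Dixon's ratio, which chance gives in about 1 of 20 groups. This was AAV-FGF17 replicate 1 for Mthfd1l, at 1.28 FPKM, where the nearest heart of its group stood at 0.687 FPKM (ratio 0.951).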

How the results depend on the processing

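Aldh1l1 stayed below the median gene under all 18 alternatives. Its log2 change was -2.04 with a pseudocount of 0.1, which weighs low values more, and ran from -1.38 to -0.95 when 1 library was left out, the smallest size being without control vector replicate 3. With control vector replicates 1 and 4, the most similar pair, averaged as 1 sample, an alternative chosen after seeing the data, it was -1.21. None of the other tested enzymes passed limma under any alternative, with adjusted p between 0.29 and 0.99. Shmt2 reversed to 0.029 without control vector replicate 3, to 0.072 without control vector replicates 2 and 3 and to 0.067 with array quality weights, and ran from -0.13 to 0.029 when 1 library was left out; the cause was not tested. Over all genes, 0 passed in either direction, against 5 higher and 1 lower without control vector replicates 2 and 3, and 4 higher and 1 lower with array quality weights. Leaving out 1 library gave 0 to 1 higher (1 without control vector replicate 1, 2 or 3) and 0 to 3 lower (3 without control vector replicate 1, and 1 without control vector replicate 3 or AAV-FGF17 replicate 3). With the replicate block no gene passed (0 higher and 0 lower), and the Aldh1l2 adjusted p by limma was 0.509. Read depth is unknown, so the precision of values under 1 FPKM rests on the spread between hearts.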

Other observations

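Of the genes within 250000 bases of Aldh1l1, 4 were listed, and they were looked at after the values were seen. Slc41a3, a magnesium carrier of the SLC41 family that begins 4522 bases beyond the end of Aldh1l1 on the same strand, measured 1.74, 3.56, 3.16 and 3.32 FPKM in AAV-FGF17 hearts, against 5.97, 4.44, 11.2 and 7.13 FPKM in control vector hearts. The groups did not overlap as deposited, but did after median-of-ratios scaling, and the log2 change relative to the median gene was -0.90 ± 0.25 (SE; limma adjusted p = 0.495). Over all tested genes, 4.64% lay without overlap below the controls as deposited. Its profile had rank 12 of 9780 genes in likeness to Aldh1l1 (0.37, against a median of 0.73). Its lowest AAV-FGF17 heart was replicate 1, that of Aldh1l1 replicate 2. A link between the 2 genes was not tested. Klf15, a transcription factor that ends 11189 bases before Aldh1l1, averaged 8.21 ± 1.84 FPKM in AAV-FGF17 hearts and 9.20 ± 2.81 in control vector hearts (SD, n = 4 each; limma adjusted p = 0.766). Iqsec1 averaged 3.95 ± 0.529 and 3.73 ± 1.04 FPKM, and Zxdc 0.659 ± 0.0562 and 0.728 ± 0.106 FPKM, with overlapping groups.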
